A study of Mus musculus with 6 samples.

Results

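The mitosis genes described here are 38 genes whose products assemble and divide the mitotic apparatus: the cyclins and kinases of mitotic entry, the spindle checkpoint, the kinetochore, spindle motors and the machinery of cytokinesis. They were chosen by symbol, and each was read from the probe set that the platform annotation pairs with that symbol. Of the 38 genes, 37 had a named probe set among the 22206 of the array, each with 1 only. Ccnb1, cyclin B1, had none and was not analysed here.

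Regulatory T (Treg) cells, a class of CD4+ lymphocytes that holds immune responses in check, were profiled on 6 mouse Clariom S arrays, which give 1 signal per probe set. 3 arrays held Ube2m&Ube2f-deficient cells from Foxp3Cre/wt;Ube2m fl/fl;Ube2f fl/fl females, and 3 held control cells from Foxp3Cre/wt females. Both groups carried the Foxp3 allele that encodes YFP and Cre, so Cre is made where Foxp3 is active, and the CD4+YFP+ fraction of spleen and peripheral lymph nodes was sorted in both. The females are mosaic, since random X inactivation leaves part of their Treg cells on the wild-type Foxp3 allele, and the study used them because those cells keep the animals free of inflammation. Mice were 8 to 12 weeks old, and 2 to 3 of them were pooled for each sample, so replicate spread here is spread between pools and not between single animals. UBE2M and UBE2F are the E2 enzymes that attach NEDD8 to cullins and so switch on cullin-RING ubiquitin ligases, which degrade many cell cycle regulators, and the arrays ask how RNA levels differ when both enzymes are lost. Protein levels were not measured here.

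The log2 signals had array medians of 4.95 to 5.11 in deficient and 4.89 to 5.04 in control samples. Ube2f was lower in every deficient sample, at 9.70, 9.72 and 9.82, against 11.91, 11.82 and 11.90 in control samples (log2 difference -2.13, adjusted p = 0.000263), while Ube2m was not analysed here. Titles of the samples name muscle, whereas their other labels name Treg cells. Of 12 skeletal muscle markers, 11 had both group means at or under a log2 signal of 5.62, the level that 95% of the values of 1091 olfactory receptor probe sets did not exceed, and of 12 markers of T cell identity 0 did.

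As background, a T cell that enters mitosis has replicated its DNA and then activates CDK1 with A- and B-type cyclins, which CDC25 phosphatases support by removing inhibitory phosphates. Polo-like kinase 1 and the Aurora kinases build the spindle, and the spindle checkpoint holds the anaphase-promoting complex back until all kinetochores are attached. CDC20 then turns that complex on securin and the B-type cyclins, and the cell divides. Transcripts of most of these genes peak in G2 and mitosis and are low in resting lymphocytes, so their level in a bulk sample follows the number of dividing cells as well as the level per cell. In these bulk samples more dividing cells and more RNA per cell cannot be told apart. Treg cells of lymph nodes and spleen include a cycling fraction, which Mki67 is widely used to mark.

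The promoters of such late cell cycle genes are known for a cell cycle genes homology region (CHR), read by the MuvB complexes, together with upstream CCAAT boxes bound by NF-Y. RefSeq promoter windows of assembly GRCm38.p6, 250 bases before to 50 after the start of transcription, were found for 31 of the 38 genes, 3 of them with more than 1 start. They were searched for TTTGAA and TTCGAA on either strand (CHR) and for CCAAT on either strand. Of 34 mitosis promoters, 27 (79.4%) held a CHR, 26 (76.5%) a CCAAT box and 24 (70.6%) both, beside 19.2%, 37.4% and 7.52% of all 32851 promoters in the table. Of 37 promoters of DNA replication genes, 16.2% held a CHR, 59.5% a CCAAT box and 13.5% both. A match describes the letters in the window and is not a measured site.

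Printed below is the stretch from 100 bases before to 25 after the start for the checkpoint kinase gene that passed the test, for both genes whose deficient arrays lay below the controls, and for 2 further genes that are described later. Capitals mark CHR and CCAAT matches on either strand, and each line runs 5′ to 3′ along the gene.
Bub1, chr2:127831835-127831959, minus strand: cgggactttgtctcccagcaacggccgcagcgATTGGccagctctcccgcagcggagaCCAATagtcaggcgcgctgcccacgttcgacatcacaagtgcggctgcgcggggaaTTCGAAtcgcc
Cdc25b, chr2:131186848-131186972, plus strand: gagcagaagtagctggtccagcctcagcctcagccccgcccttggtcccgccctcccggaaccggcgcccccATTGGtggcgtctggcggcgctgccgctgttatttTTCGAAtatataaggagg
Cdc20, chr4:118437319-118437443, minus strand: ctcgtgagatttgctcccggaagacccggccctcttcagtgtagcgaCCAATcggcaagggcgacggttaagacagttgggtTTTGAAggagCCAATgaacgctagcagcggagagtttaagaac
Ccnb2, chr9:70421530-70421654, minus strand: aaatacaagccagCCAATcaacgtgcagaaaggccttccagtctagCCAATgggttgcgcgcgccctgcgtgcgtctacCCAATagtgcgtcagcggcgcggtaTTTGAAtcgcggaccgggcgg
Pttg1, chr11:43425957-43426081, minus strand: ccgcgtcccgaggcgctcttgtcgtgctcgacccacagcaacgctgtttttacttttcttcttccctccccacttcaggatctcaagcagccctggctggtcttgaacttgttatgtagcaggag

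Bub1 and Cdc25b thus share the TTCGAA form of the element and a CCAAT box upstream of it. Cdc20 and Ccnb2 hold the TTTGAA form, and Ccnb2 has 3 CCAAT boxes before it. Pttg1 holds no such letters in this window or anywhere in its longer search window.

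Across the 37 measured mitosis genes the difference between deficient and control samples was mostly positive. Its median was a little under the median SD of the deficient samples, 0.44. The log2 difference, deficient minus control, was positive for 29 genes and negative for 8, with a median of 0.35, beside a median of 0.02 over all probe sets. In the limma fit over all probe sets, 1 of 37 genes, Bub1, rose at an adjusted p under 0.05, and 0 fell. Over all probe sets 0.581% were called higher and 2.27% lower at that threshold. At an unadjusted p under 0.05, 7 mitosis genes were higher and 2 lower, beside 5.24% and 7.62% of all probe sets. The deficient arrays lay wholly above the control arrays for 6 genes (Plk1, Aurka, Bub1, Bub1b, Cdc20 and Ndc80) and wholly below for 2 (Cdc25b and Pttg1), beside 8.22% and 9.97% of all probe sets. Without deficient array 2 the median was 0.17, with 27 differences above and 10 below 0, and 0 genes were called in either direction, beside 0.365% of all probe sets called higher and 1.94% called lower. In that limma fit 7 genes were higher and 4 lower at an unadjusted p under 0.05, beside 5.48% and 7.67% of all probe sets. The unmoderated test that the study's methods name gave, with all arrays, 3 higher and 2 lower at that level, beside 4.94% and 7.11% of all probe sets.

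**Figure D1:**
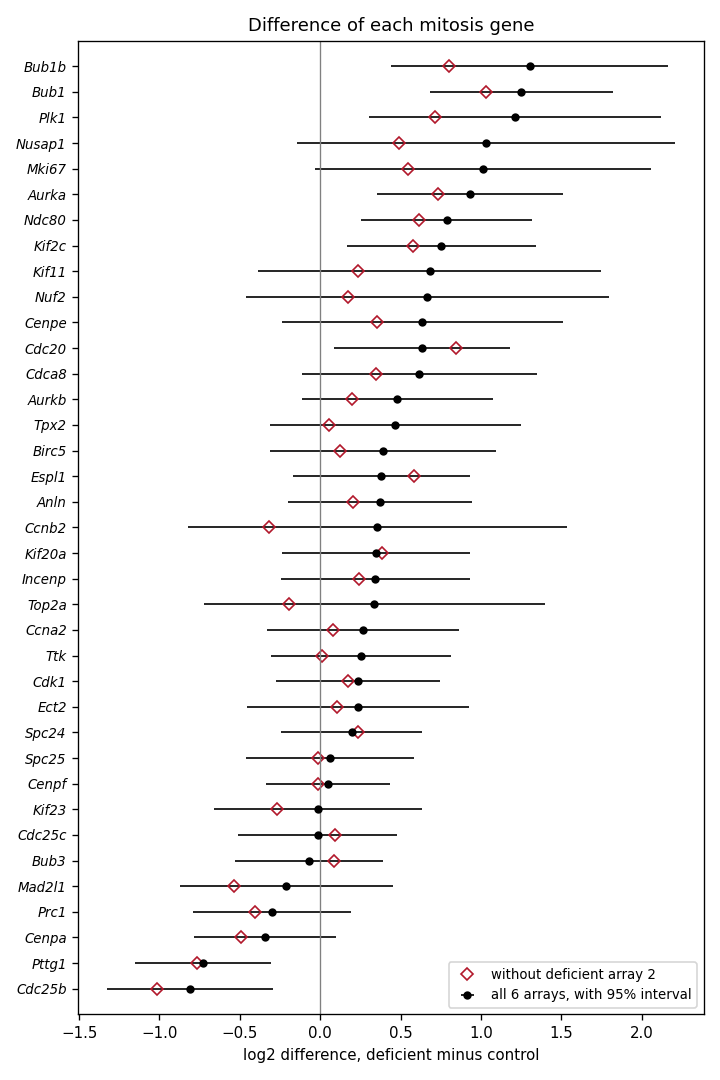
Log2 difference (x axis, deficient minus control) of each of the 37 measured mitosis genes (y axis, sorted), with all 6 arrays as filled circles with the 95% confidence interval of the limma fit, and without deficient array 2 as open diamonds. The circles have a median of 0.35 and the diamonds a median of 0.17, and the intervals of 9 genes leave out 0.

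The spindle checkpoint held the only gene that passed the test. BUB1 is a kinase that sits at kinetochores and recruits the other checkpoint proteins. Bub1 had log2 signals of 5.14, 5.86 and 5.28 in deficient samples, against 3.88, 4.50 and 4.15 in control samples. Every deficient sample lay above every control sample, and the gap between the groups was about as wide as the range within either of them. The means were 5.43 ± 0.38 in deficient and 4.18 ± 0.31 in control samples (SD, n = 3 each), a rise of 1.25 ± 0.25 (SE) on the log2 scale (adjusted p = 0.0352). The exact two-sided permutation test over the arrays gave p = 0.1, the smallest that 3 against 3 allows. The call rested on all 6 arrays. Leaving out any 1 of them gave an adjusted p of 0.0609 to 0.127 and a difference of 1.03 to 1.41, and 5 of the 6 signals lay under the level that marks silent genes, 5.62.

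Bub1b encodes BUBR1, the pseudokinase of the mitotic checkpoint complex, and had the largest difference of all mitosis genes with all 6 arrays, though not without deficient array 2. Its signals were 6.50, 8.07 and 6.62 in deficient samples and 5.85, 5.63 and 5.80 in control samples. The groups did not overlap, yet deficient array 2 alone stood far above the other deficient arrays. The difference of 1.30 ± 0.38 (SE) had an adjusted p of 0.145, and without deficient array 2 it was 0.80 with an adjusted p of 0.0978.

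The other checkpoint genes overlapped between the groups. Bub3, which docks BUB1 and BUBR1 on the kinetochore and also serves outside mitosis, had signals of 13.13, 12.78 and 13.35 in deficient and 13.22, 13.00 and 13.25 in control samples, a difference of -0.07 (adjusted p = 0.946). Here deficient array 2 was the lowest of all 6 arrays. Mad2l1, whose product MAD2 binds and restrains CDC20, had 8.48, 9.45 and 8.45 in deficient and 9.25, 8.75 and 9.01 in control samples, a difference of -0.21 (adjusted p = 0.866). For Mad2l1 deficient array 2 was the highest of all arrays and the other deficient arrays were the lowest. For Ttk, the MPS1 kinase at the head of the checkpoint, the means were 3.85 ± 0.44 in deficient and 3.59 ± 0.18 in control samples.

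All 7 genes of the Polo-like and Aurora kinase group had positive differences, with a median of 0.48 (0.24 without deficient array 2), and in all 7 deficient array 2 was the highest of the 6 arrays. None passed the test. Plk1, the Polo-like kinase of spindle assembly and mitotic exit, had 6.47, 8.20 and 6.95 in deficient and 6.31, 5.73 and 5.94 in control samples. The lowest deficient sample lay only just above the highest control sample. The difference was 1.21 ± 0.40 (SE) with an adjusted p of 0.209, and 0.72 without deficient array 2. Aurka, the Aurora kinase of centrosomes, had 5.21, 6.16 and 5.91 in deficient and 4.82, 4.71 and 4.96 in control samples. Its groups did not overlap, and deficient array 1 was the one close to the controls. The difference was 0.93 ± 0.26 (SE), with an adjusted p of 0.119 over all arrays and, without deficient array 1, a difference of 1.21 with an adjusted p of 0.0407.

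The chromosomal passenger complex, which corrects faulty kinetochore attachments, had no gene past the test. Its kinase gene Aurkb averaged 5.84 ± 0.53 in deficient and 5.36 ± 0.05 in control samples, and the borealin gene Cdca8 averaged 4.78 ± 0.53 in deficient and 4.16 ± 0.48 in control samples. For Birc5, survivin, the means were 5.91 ± 0.46 in deficient and 5.52 ± 0.50 in control samples, and for the scaffold gene Incenp they were 6.31 ± 0.25 in deficient and 5.96 ± 0.45 in control samples. Tpx2, whose product activates Aurora A on the spindle, averaged 4.50 ± 0.76 in deficient and 4.03 ± 0.14 in control samples. The adjusted p of these 5 genes was 0.498 to 0.707, and the groups overlapped in each.

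**Figure D2:**
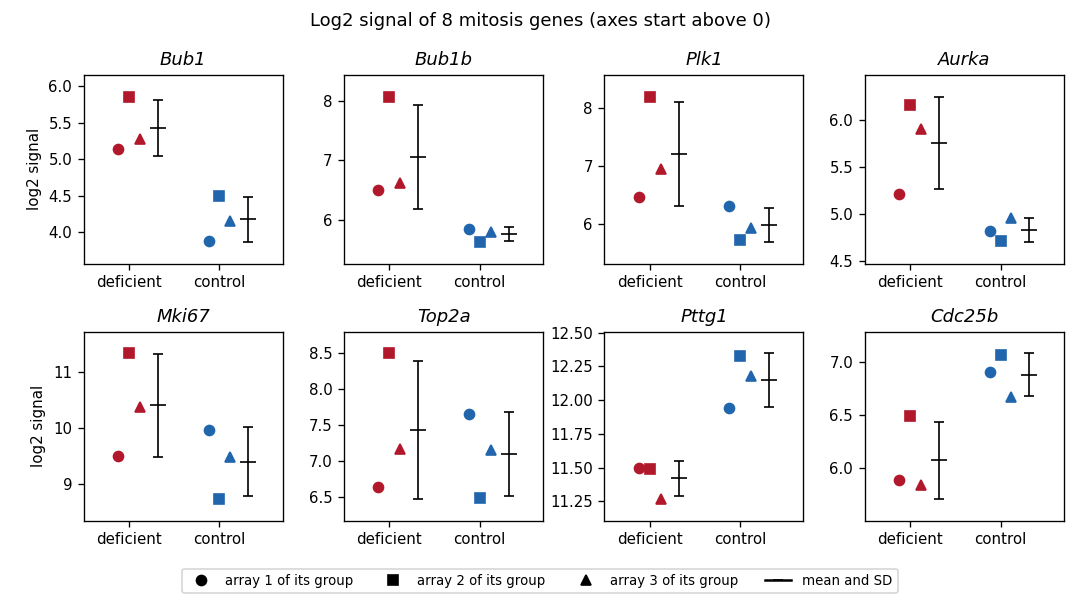
Log2 signal (y axes, each with its own range above 0) of 8 mitosis genes in the 3 deficient and 3 control samples (x axes), with the mean and SD beside the points. Deficient array 2 (square) is the highest point for Bub1, Bub1b, Plk1, Aurka, Mki67 and Top2a, while all deficient points lie below the control points for Pttg1 and Cdc25b.

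Among the genes of mitotic entry the differences pointed both ways, and none passed the test. Cdc25b encodes a phosphatase that starts CDK1 activation at the centrosome. It had 5.89, 6.49 and 5.84 in deficient samples, against 6.91, 7.07 and 6.67 in control samples. All deficient samples lay below all control samples, with deficient array 2 closest to the controls. The difference was -0.81 ± 0.23 (SE) with an adjusted p of 0.131, and without deficient array 2 it was -1.02 with an adjusted p of 0.0507, which also missed the threshold.

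Ccnb2, cyclin B2, had 7.61, 9.23 and 6.82 in deficient and 7.89, 7.34 and 7.37 in control samples. The deficient samples included both the highest and the lowest array, and the difference of 0.35 turned to -0.32 without deficient array 2. Cdk1, the kinase itself, had 2.93, 3.39 and 3.46 in deficient and 3.16, 2.70 and 3.21 in control samples, with a difference of 0.24 (adjusted p = 0.775). These signals lay under the level that marks silent genes on every array, and the groups overlapped. Ccna2, cyclin A2, and Cdc25c, the phosphatase of the G2 to M transition, were also under that level in both group means, at 4.87 ± 0.39 in deficient and 4.61 ± 0.36 in control samples for Ccna2 and at 2.82 ± 0.37 in deficient and 2.84 ± 0.02 in control samples for Cdc25c.

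The proliferation mark Mki67, whose product coats mitotic chromosomes, had 9.51, 11.34 and 10.38 in deficient and 9.97, 8.74 and 9.49 in control samples. Deficient arrays 2 and 3 lay above all control arrays, and deficient array 1 lay among them. The difference was 1.01 ± 0.46 (SE) with an adjusted p of 0.409, and its 95% confidence interval ran from -0.03 to 2.05. It was 0.55 without deficient array 2 and 1.46 without deficient array 1. Top2a, the topoisomerase that untangles sister chromatids, had 6.63, 8.49 and 7.17 in deficient and 7.65, 6.48 and 7.15 in control samples. Deficient array 2 was the highest array, deficient array 1 was the second lowest, and the difference of 0.34 (adjusted p = 0.866) turned to -0.19 without deficient array 2.

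For anaphase the 3 genes split. CDC20, the activator of the anaphase-promoting complex, is the target that the checkpoint holds back. Cdc20 had 4.19, 3.79 and 4.65 in deficient and 3.76, 3.44 and 3.53 in control samples. The groups did not overlap, though all values lay under the level that marks silent genes, and deficient array 2 was the lowest of the deficient arrays. The difference was 0.63 (adjusted p = 0.291), and 0.84 without deficient array 2 (adjusted p = 0.134). Pttg1 encodes securin, which keeps separase inactive until anaphase. It had 11.50, 11.49 and 11.27 in deficient samples, against 11.94, 12.33 and 12.18 in control samples. All deficient samples lay below all control samples with little spread within either group, and the difference was -0.73 ± 0.19 (SE) with an adjusted p of 0.092. Espl1, the separase gene, averaged 4.73 ± 0.39 in deficient and 4.35 ± 0.26 in control samples (adjusted p = 0.614).

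Kinetochore and centromere genes had a median difference of 0.20 over 7 genes, and 0 passed the test. Ndc80, the microtubule-binding subunit of the outer kinetochore, had 7.50, 7.95 and 7.37 in deficient and 7.13, 6.82 and 6.51 in control samples. Its groups did not overlap, and the difference was 0.79 ± 0.23 (SE) with an adjusted p of 0.152. Its partners in the same complex did not share that separation. Nuf2 had 6.17, 7.93 and 6.71 in deficient and 7.17, 6.01 and 5.63 in control samples, a difference of 0.67 (adjusted p = 0.686) and of 0.17 without deficient array 2. Spc24 averaged 5.23 ± 0.10 in deficient and 5.03 ± 0.25 in control samples, and Spc25 averaged 5.30 ± 0.16 in deficient and 5.24 ± 0.39 in control samples. In this complex, then, the measured difference ran between 0.06 for Spc25 and 0.79 for Ndc80.

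Cenpa, the histone H3 variant that marks the centromere, had 9.22, 9.69 and 9.27 in deficient and 9.61, 9.82 and 9.78 in control samples. Deficient arrays 1 and 3 lay below all control arrays, and deficient array 2 lay between the lowest control and the next, for a difference of -0.34 (adjusted p = 0.547). The kinetochore motor gene Cenpe averaged 6.72 ± 0.67 in deficient and 6.08 ± 0.60 in control samples, and Cenpf, a large coat protein of the kinetochore, 4.03 ± 0.10 in deficient and 3.99 ± 0.09 in control samples.

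Spindle motor and microtubule genes had a median difference of 0.75 over 3 genes and of 0.49 without deficient array 2, which was the highest array in all 3, and none was called. Nusap1, whose product bundles spindle microtubules, had 4.83, 7.05 and 6.01 in deficient and 5.42, 4.26 and 5.11 in control samples. Deficient array 1 lay below 2 of the 3 control arrays, and the difference of 1.03 ± 0.52 (SE) had an adjusted p of 0.469 and was 0.49 without deficient array 2. Kif11, the motor that pushes spindle poles apart, had 6.26, 8.32 and 7.69 in deficient and 7.18, 6.38 and 6.67 in control samples. Here deficient array 1 was the lowest of all arrays, and the difference was 0.68 (adjusted p = 0.650), and 0.23 without deficient array 2. Kif2c, the depolymerising kinesin MCAK, averaged 5.63 ± 0.48 in deficient and 4.88 ± 0.20 in control samples (adjusted p = 0.229).

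The 5 genes of the central spindle and cytokinesis differed by -0.30 to 0.37, and 0 were called. Prc1, which bundles the antiparallel microtubules of the midzone, had 4.88, 4.94 and 4.36 in deficient and 4.86, 5.23 and 4.99 in control samples, a difference of -0.30 (adjusted p = 0.669). The values of the groups overlapped. Ect2, the exchange factor that activates RhoA at the furrow, averaged 6.12 ± 0.59 in deficient and 5.88 ± 0.30 in control samples, and Anln, anillin of the contractile ring, 4.10 ± 0.35 in deficient and 3.73 ± 0.36 in control samples. The midzone kinesins were at 7.06 ± 0.53 in deficient and 7.07 ± 0.29 in control samples for Kif23 and at 4.97 ± 0.21 in deficient and 4.62 ± 0.47 in control samples for Kif20a. All 5 genes overlapped between the groups.

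Within each group the arrays fell in a recurring order. Deficient array 2 had the highest value of all 6 arrays in 24 of 37 genes (64.9%), beside 17.9% of all probe sets, and was the highest deficient array in 28 of 37, beside 33.3% of all probe sets. Control array 1 was the highest control array in 24 of 37 genes, beside 32.7% of all probe sets, and deficient array 1 was the lowest deficient array in 24. Averaged over the 37 genes, the log2 signal was 5.92, 6.71 and 6.25 in deficient samples and 6.11, 5.79 and 5.86 in control samples. Deficient array 1 thus lay below control array 1, and the groups overlapped. These genes rise and fall together in dividing cells, so the counts over genes are a description and not independent observations.

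**Figure D3:**
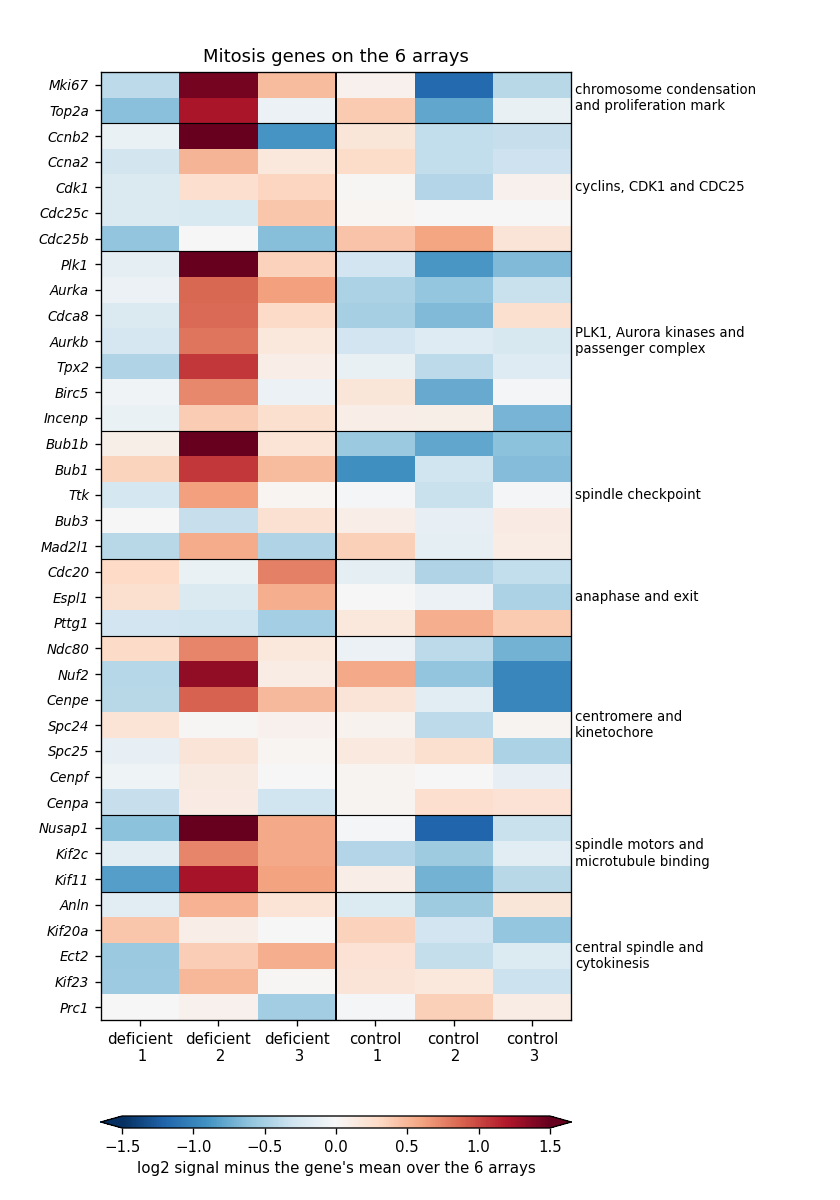
Log2 signal of each mitosis gene on each array minus the gene's mean over the 6 arrays (colour, blue below and red above 0), with genes in rows by role and the 3 deficient arrays left of the 3 control arrays. The column of deficient array 2 is the highest in 24 of the 37 rows.

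The spread followed the same arrays. The range over the 3 deficient arrays had a median of 0.86 among mitosis genes, against 0.52 over the 3 control arrays, and was the wider one in 29 of 37 genes. Over all probe sets these medians were 0.48 in deficient and 0.44 in control samples. Without deficient array 2, 25 of the 29 positive differences were smaller, and 6 differences turned sign. That array was the highest deficient array in 28 of 37 genes, and leaving out the highest value lowers a mean. These counts therefore largely restate the order of the arrays. From the estimate to either end, the 95% confidence interval had a median length of 0.59, and the intervals of 18 genes reached a difference of 1, so for these a doubling of the signal was not excluded by the arrays at hand. 15 genes had both group means at or under the silent-gene level of 5.62 and 17 had both above it. Among those 17 the median difference was 0.34, with 11 differences above and 6 below 0 and 0 calls, and without deficient array 2 it was 0.11, with 10 above and 7 below 0. The level of 5.62 is a single value for all arrays. Taken by array, it was 4.785 in control array 1, 5.05 in deficient array 2 and 6.245 in deficient array 3. The median olfactory receptor signal was lowest in control array 1 (3.61) and deficient array 2 (3.73), where the mitosis genes were highest within their groups. It was 4.01 to 4.39 in the other arrays. The part of this background in the mitosis values was not tested.

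Some markers of other cells also varied between these arrays. The list of 9 CD8 T and NK cell markers had mean log2 signals of 5.32, 6.59 and 5.33 in deficient and 5.60, 4.90 and 5.09 in control samples, and deficient array 2 was the highest of all arrays in 6 of the 9. Gzma, a granzyme of cytotoxic cells, had 5.44, 9.65 and 6.73 in deficient and 6.68, 5.71 and 5.46 in control samples. The NK receptor gene Klrb1c had 5.06, 7.71 and 5.03 in deficient and 6.98, 5.01 and 5.79 in control samples, so that its highest arrays were deficient array 2 and control array 1. Those are the arrays in which the mitosis genes were highest within their groups. Gzma and Klrb1c were named after their values were seen. In the same list Prf1 was highest on control array 3 (5.81) and Cd8a on control array 1 (5.75). The list had a median difference of 0.55, with 8 above and 1 below 0. Without deficient array 2 the median was 0.095, with 6 above and 3 below 0. The deficient arrays lay wholly above the controls for 2 of the 9, beside 8.22% of all probe sets. These were Klrk1 (difference 1.16, adjusted p = 0.126) and Klrd1 (difference 0.77, adjusted p = 0.332). Of the 9 markers, 6 had both group means at or under 5.62, 0 were called, and Cd8b1, the brightest, had 9.62, 8.81 and 8.05 in deficient and 7.93, 8.50 and 8.41 in control samples. Magnetic CD4+ enrichment and the CD4+YFP+ sort, which the labels describe as of high purity, are steps meant to remove such cells. Purity by array was not known here, and the part of such cells in the mitosis values was not tested.

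Plasmablast markers, which cycling cells of the B lineage carry, had mean signals of 6.16, 6.34 and 5.75 in deficient and 5.54, 5.19 and 5.27 in control samples. These means did not overlap between the groups, the median difference was 0.21, and 0 of 7 genes were called. Of the 7, 5 had both group means at or under 5.62. Differences were positive for 6 of the 7 and negative for 1. The deficient arrays lay wholly above the controls for 3, beside 8.22% of all probe sets. These were Jchain, Mzb1 (difference 0.69, adjusted p = 0.155) and Tnfrsf17 (difference 0.41, adjusted p = 0.335). Jchain had by far the largest difference and so moved the means most. Jchain, the joining chain of secreted antibodies, had 10.10, 11.94 and 8.01 in deficient and 7.69, 5.31 and 5.26 in control samples (difference 3.93, adjusted p = 0.0773), while Sdc1, syndecan-1, was at 5.27, 4.91 and 5.65 in deficient and 5.05, 5.39 and 5.35 in control samples. Xbp1, the brightest, averaged 12.35 in deficient and 12.24 in control samples. Deficient array 2 was the highest array in 3 of the 7 genes, Jchain among them, and the part of plasmablasts was not tested.

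In the remaining marker lists deficient array 2 was the highest array in 0 of 12 T cell identity, 0 of 7 Treg, 2 of 8 B cell, 1 of 4 immature thymocyte, 4 of 12 skeletal muscle, 5 of 11 myeloid and dendritic cell and 1 of 7 erythroid markers. T cell identity markers had a median difference of -0.07 over 12 genes with 0 called, led in brightness by Cd3e at 18.04 in deficient and 18.40 in control samples. Of 7 Treg markers 3 fell, beside 2.27% of all probe sets. They were Ctla4, Capg and Ikzf2, the last at 15.44 in deficient and 16.39 in control samples and no longer called without deficient array 2 (adjusted p = 0.11). The median over the 7 was -0.68, with 6 differences below and 1 above 0. That 1 was Il2ra, whose deficient arrays lay wholly above the controls (difference 0.60, adjusted p = 0.135). Foxp3 was not analysed here. B cell markers had a median of -0.24 over 8 genes with Cd79b at 6.30 in deficient and 6.63 in control samples, immature thymocyte markers -0.02 over 4 with Cd1d1 at 9.07 in deficient and 9.11 in control samples, and skeletal muscle markers -0.14 over 12 with Actn3 at 5.66 in deficient and 5.65 in control samples. Myeloid and dendritic cell markers had a median of 0.25 over 11 genes, all 11 at or under 5.62 in both means (Siglech averaged 5.16 in deficient and 5.13 in control samples). Erythroid markers had a median of 0.17 over 7, and Tfrc, the transferrin receptor that dividing cells of many types also carry, averaged 9.61 in deficient and 8.61 in control samples (adjusted p = 0.072). In these 5 lists 0 genes were called.

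**Figure D4:**
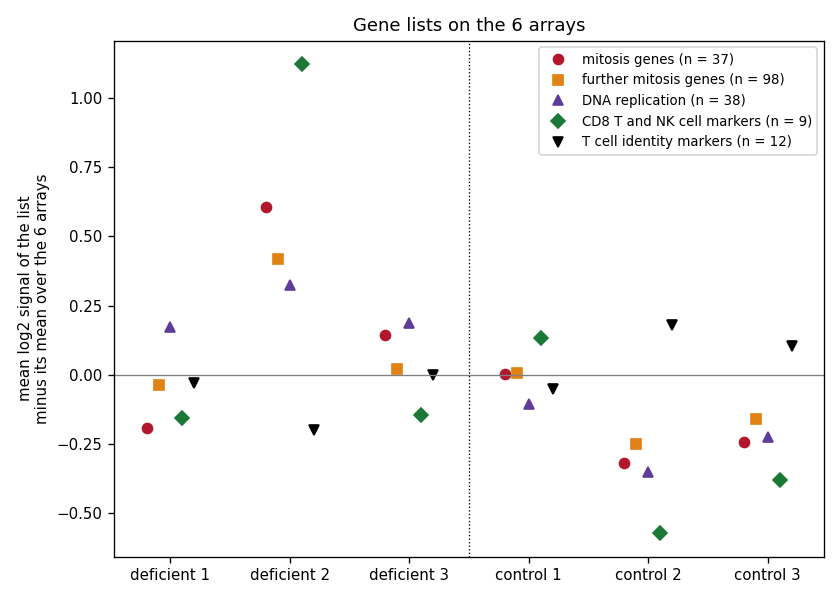
Mean log2 signal of 5 gene lists on each array (x axis, deficient arrays left of control arrays) minus the mean of the list over the 6 arrays (y axis). On deficient array 2 the mitosis genes, further mitosis genes, DNA replication genes and CD8 T and NK cell markers were all at their highest. Their means there were 6.71, 8.05, 7.62 and 6.59. T cell identity markers were at their lowest there, at 14.52.

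Further mitosis genes, 98 measured of 105 listed, also leaned to positive differences. Their median difference was 0.26, with 71 positive and 27 negative, and 0.13 without deficient array 2. The test called 1 higher, beside the 0.581% of all probe sets, and 0 lower. That gene was Stmn1, the microtubule-destabilising stathmin, with 8.80, 10.33 and 9.72 in deficient and 7.77, 7.41 and 8.26 in control samples. All deficient samples lay above all controls, and the rise of 1.80 had an adjusted p of 0.0434, which was 0.0842 without deficient array 2.

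By role, subunits and regulators of the anaphase-promoting complex had a median of -0.05 over 18 genes, with Ube2s, the E2 that extends its ubiquitin chains, at 8.90, 8.97 and 8.70 in deficient and 8.03, 8.37 and 8.29 in control samples (difference 0.63, adjusted p = 0.148) and the subunit Anapc11 at a difference of -0.75 (adjusted p = 0.298). Condensin and cohesin genes had a median of 0.27 over 18 (0.17 without deficient array 2), including the condensin II subunit Ncapd3 at 0.85 (adjusted p = 0.0771) and Cdca5, sororin, at 1.01 (adjusted p = 0.353). Additional kinetochore genes had a median of 0.24 over 26, with Cenpm at 0.66 and Cenph at 0.61, and a median of 0.03 without deficient array 2. Additional spindle and cytokinesis genes had 0.45 over 19 (0.28 without deficient array 2), with the kinesin gene Kifc1 at 0.70 (adjusted p = 0.102).

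Genes of mitotic entry control and its transcription had 0.33 over 17 (0.13 without deficient array 2), with the CDK1-inhibiting kinase Pkmyt1 at 0.80 (adjusted p = 0.0637) and the MuvB subunit Lin54 at 0.73 (adjusted p = 0.119). Racgap1, the centralspindlin partner of KIF23, was named after its values were seen, because it was the 1 further mitosis gene that passed the test without deficient array 2. It had 5.19, 6.97 and 5.77 in deficient and 6.99, 6.84 and 7.22 in control samples. Deficient arrays 1 and 3 lay more than 1 log2 unit below the controls and deficient array 2 lay among them. The difference was -1.04 with all arrays (adjusted p = 0.291) and -1.54 without deficient array 2 (adjusted p = 0.0173).

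DNA replication genes, which act in the phase before mitosis, differed from the mitosis genes in how the arrays fell. Their mean signals were 7.47, 7.62 and 7.48 in deficient and 7.19, 6.94 and 7.07 in control samples, without overlap, whereas the means of the mitosis genes overlapped. Deficient array 2 was the highest array in 12 of 38 genes (31.6%). The median difference was 0.43 over 38 genes, 31 of them positive, and 0.37 without deficient array 2. The test called 5 higher, beside the 0.581% of all probe sets, and 0 lower, and without deficient array 2 it called 2 higher, Mcm5 and Cdt1, beside 0.365%. Mcm5, a subunit of the replicative helicase, had 8.69, 8.61 and 9.07 in deficient and 7.23, 7.13 and 7.20 in control samples, a rise of 1.60 (adjusted p = 0.00247). The licensing factor Cdt1 rose by 1.08 (adjusted p = 0.0159), the methylation maintenance factor Uhrf1 by 1.10 (adjusted p = 0.0389) and the primase subunit Prim1 by 1.01 (adjusted p = 0.0388). Pole2, a subunit of polymerase epsilon, was outside the rule for naming and rose by 1.01 (adjusted p = 0.0335), with an adjusted p of 0.0815 without deficient array 2. Leaving out single arrays gave adjusted p of 0.0051 to 0.0179 for Mcm5, and for Cdt1, Uhrf1 and Prim1 the highest values were 0.0737, 0.159 and 0.128. The difference between the mitosis and replication lists was not tested.

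**Figure D5:**
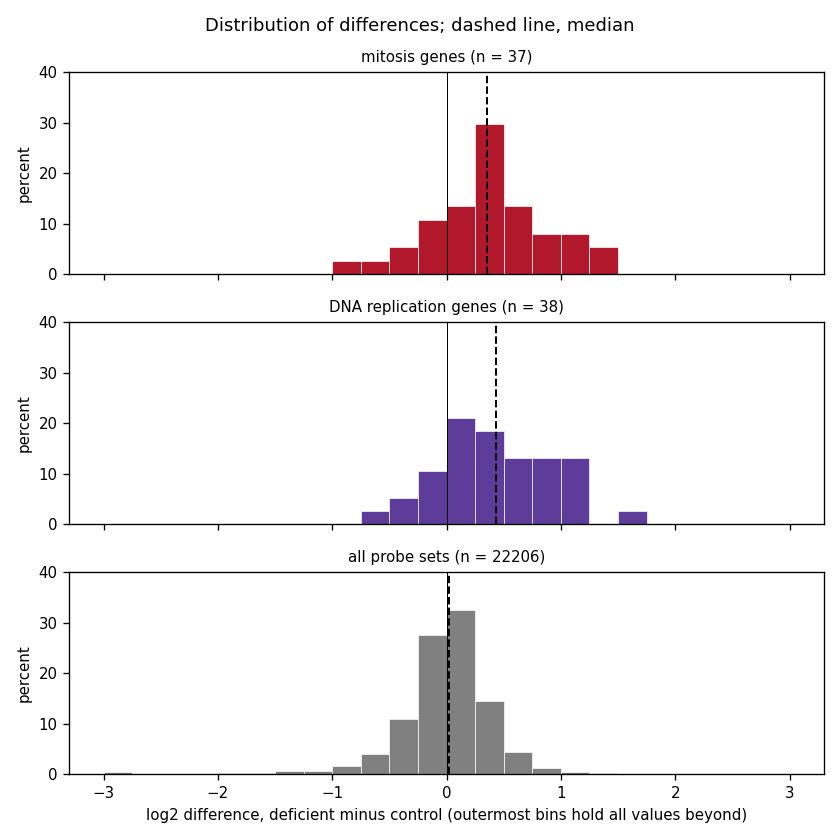
Share of genes or probe sets (y axes, percent) by log2 difference, deficient minus control (x axis, bins of 0.25), for the 37 mitosis genes, 38 DNA replication genes and all 22206 probe sets, with the median as a dashed line. The medians are 0.35, 0.43 and 0.02 from top to bottom.

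Set against the promoter letters, the 21 measured mitosis genes with both a CHR and a CCAAT box had a median difference of 0.34, between -0.81 for Cdc25b and 1.30 for Bub1b. The 9 measured genes with a promoter that lacked at least 1 of them had a median of 0.63, between -0.73 for Pttg1 and 1.03 for Nusap1. Bub1 and Cdc25b, whose printed windows share the TTCGAA element, differed in opposite directions, and these values are given as a description only.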

How the data were processed

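The authors deposited 1 log2 signal for each probe set of each array, and these values were analysed; the submitters' processing notes credit them to Affymetrix Expression Console 1.4. How probe sets were summarised, in which log base and with what background correction is not stated in the sources used here. With a range of 2.06 to 19.9 they were taken to be log2, and another base would change folds but not signs. RNA was amplified with a pico kit before labelling. Scan dates were not used here.

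Probe sets were named from the platform annotation (19572 with 1 symbol, 0 with several, 2634 unnamed here), taking the brightest of a symbol. The 3 deficient and 3 control arrays, grouped by the genotype label, entered 1 unfiltered limma fit of all 22206 probe sets (limma 3.58.1 in R 4.3.3, lmFit then eBayes, with genotype alone in the model). P-values were Benjamini-Hochberg adjusted over the whole table, with a threshold of 0.05. Intervals are 95% confidence intervals of that fit. The number of arrays limits the precision. The fit was run on simulated normal data with the real spreads shuffled among probe sets. It recovered 0% of 200 probe sets changed by 1 log2 unit and 85.5% of 200 changed by 2. With no change it called 2 of 22206. The simulation differed from the real data, where 129 probe sets were called higher and 503 lower. With only 200 probe sets changed, the adjustment for multiple tests was stricter than in the real fit. That real fit did call differences near 1, such as 1.01 for Prim1. The shares recovered therefore do not give the power of the real fit.

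The mitosis genes, the other gene lists and the cell type markers were chosen with earlier results of these data known. Lists are described by counts and medians, with no test. Array values were given for mitosis genes called with or without deficient array 2 or in an alternative, the 5 highest and 5 lowest differences, the 3 brightest, and Mki67, Top2a and Cdk1, and others were added after their values were seen. Of other lists, up to 4 called members or the 2 with the lowest p were named, and the brightest of each marker list. As alternatives, arrays were quantile normalized, centred on their medians, weighted, or left out; the 40% dimmest probe sets were dropped; the variance was fitted robustly with a trend on intensity; probe sets of a symbol were averaged; replicate number entered as a block; and the methods' t-test was run. The study's methods name that t-test beside a Mann-Whitney test and do not say which was used on the arrays. The study also set a fold-change limit for its calls, and none was applied here.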

Additional observations from a re-analysis of the deposited data

How the results depend on the processing

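The count of 1 mitosis gene called higher was kept under quantile normalization, median centring, the filter on the 40% dimmest probe sets (30 genes left), the intensity trend, array weights and the mean over probe sets, and was 0 under the methods' t-test (3 higher and 2 lower at an unadjusted p under 0.05, beside 4.94% and 7.11% of all probe sets) and with control array 1 and deficient array 2 left out together. Leaving out single arrays gave 0 to 1, and the gene called without deficient array 1 was Aurka. The count called lower was 0 under every alternative run. Over all alternatives run the median difference was 0.17 to 0.52. Over single arrays left out, the difference of Top2a was -0.19 (without deficient array 2) to 0.74 and that of Bub3 -0.20 to 0.083 (without deficient array 2). Bub3 was at 0.0061 under quantile normalization and 0.12 with control array 1 and deficient array 2 left out together. The median of the anaphase-promoting complex genes was 0.03 under quantile normalization, 0.01 without deficient array 3 and 0.04 with control array 1 and deficient array 2 left out together. The cause of these changes was not tested.

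Over all probe sets 129 were called higher and 503 lower. The methods' t-test called 1 and 5, leaving out single arrays 46 to 81 and 269 to 431, and dropping both control array 1 and deficient array 2 gave 50 and 353. Replicate numbers are not known to pair the samples. Deviations of same-numbered arrays correlated at -0.06, -0.24 and 0.29, and those of other pairs at -0.43 to 0.44. Deviations within groups of 3 arrays constrain each other, so these values cannot settle whether samples were paired. With the replicate block 70 and 367 were called, Bub1 stayed the 1 mitosis gene called higher with a median of 0.35, and Stmn1 (adjusted p = 0.0656), Uhrf1 (0.103) and Prim1 (0.0884) were not called. Uhrf1 (0.0539) and Prim1 (0.0534) also missed the threshold under median centring. With 3 arrays a group, dim probe sets and no detection calls, an uncalled gene is not shown to be unchanged.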
